A study of Mus musculus with 6 samples.

Results

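Forkhead factors are transcription factors that share a winged-helix DNA-binding domain, and their genes carry the symbol Fox followed by a letter for the subfamily and a number. FoxA proteins open chromatin in endoderm as pioneer factors, FoxO proteins are kept out of the nucleus when insulin or growth factor signalling activates the kinase AKT, FoxM1 drives genes of mitosis, and many other members set the identity of one tissue each. H3K27ac, acetylation of lysine 27 of histone H3, is deposited mainly by CBP/p300 and is found at active promoters and enhancers. The family analysed here was taken by symbol from the protein-coding genes of GENCODE (GRCm38), one member aside, which left 43 genes of 21853.

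H3K27ac ChIP-seq was performed in E14 cells, a mouse embryonic stem cell (mESC) line, grown without serum in N2B27 medium with LIF, PD0325901 (a MEK inhibitor) and CT-99021 (a GSK3 inhibitor). All groups were this 1 line, E14Tg2A with Rosa26-Cre and Oct4-IRES-Puro. Cells received DMSO (control), NVP-2 at 100 nM, which inhibits CDK9, or actinomycin D (ActD) at 800 nM, which intercalates into DNA, for 120 min, with 2 replicates of each and chromatin of human HEK293T cells as spike-in. The values below come from the deposited list of 22973 control peaks, which pools both control replicates and gives a chromosome, a start and an end without height, so no replicate error can be given, and the treated libraries were not analysed here. Nor can a list from a cell population tell a mark in few cells from a weak mark in all of them. The promoters of Pou5f1, Nanog, Sox2, Zfp42 and Tfcp2l1, 5 of 5 stem cell markers, had a peak. Of 6 markers of differentiated cells, those of Gata4 and Gata6 had one and those of Sox17, Cdx2, T and Pax6 had none.

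A control peak lay within 1 kb of the TSS for 14 of the 43 forkhead genes, or 32.6% (95% Wilson interval 20.5 to 47.5%, counting error only), beside 48.8% of all protein-coding genes. The marked promoters were those of Foxo1, Foxo3, Foxo4, Foxm1, Foxk1, Foxk2, Foxj2, Foxj3, Foxn2, Foxp1, Foxp4, Foxh1, Foxa3 and Foxl2. Another 4 genes, Foxo6, Foxn1, Foxn3 and Foxp3, had a peak only elsewhere in the annotated gene, or 9.30% (3.68 to 21.6%) beside 7.34% of all protein-coding genes. The remaining 25 had no peak at promoter or in the gene, or 58.1% (43.3 to 71.6%) beside 43.8%. The interval of the promoter share ended just below 48.8%, but included it when members within 500 kb of each other were counted once (14 of 38, 36.8%, 23.4 to 52.7%). The intervals of the other classes included the share of all genes. For comparison, 12 of 34 Sox and POU genes had a marked promoter, or 35.3% (21.5 to 52.1%), an interval that overlaps that of the forkhead genes over most of its length.

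By role, the counts were as follows. Among the FoxO, FoxK and FoxP genes together with Foxm1, Foxj2, Foxj3, Foxn2, Foxn3 and Foxh1, 12 of 16 promoters were marked. This share was 75% (50.5 to 89.8%), beside 48.8% of all protein-coding genes. Among the 27 genes known mainly as regulators of single tissues or of the germ line, 2 were marked, or 7.41% (2.06 to 23.4%). These were the liver factor Foxa3 and the ovarian factor Foxl2. Of the 27, 24 had no peak at all, or 88.9% (71.9 to 96.1%), beside 43.8% of all protein-coding genes. The role groups were joined into these 2 sets after their values were seen, so that the difference between the sets is a description and supports nothing further. None of the 9 genes of mesoderm and mesenchyme, the 4 of neural tissue and the 5 of ectoderm and placodes had a promoter peak, counts of 0 that allow shares of up to 33.3%, 75% and 60% respectively.

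The sequences directly upstream of the TSS are shown as examples picked at extremes. They do not measure how far DNA composition separated these promoters. The 200 bases before the TSS are given 5′ to 3′ on the strand of the gene (GRCm38), with CpG dinucleotides in capitals, for the members with the widest and the narrowest promoter peak (Foxo3, Foxk1), for the peak-free members with the highest and the lowest CpG ratio (Foxd1, Foxr2) and for the marked member with the lowest CpG ratio (Foxh1, chosen after its value was seen).
Foxo3, chr10:42276753-42276952, minus strand: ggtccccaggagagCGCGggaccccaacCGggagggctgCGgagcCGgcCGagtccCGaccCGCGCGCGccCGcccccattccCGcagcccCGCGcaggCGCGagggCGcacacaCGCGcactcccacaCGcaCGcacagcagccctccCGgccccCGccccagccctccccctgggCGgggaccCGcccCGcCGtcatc
Foxk1, chr5:142401300-142401499, plus strand: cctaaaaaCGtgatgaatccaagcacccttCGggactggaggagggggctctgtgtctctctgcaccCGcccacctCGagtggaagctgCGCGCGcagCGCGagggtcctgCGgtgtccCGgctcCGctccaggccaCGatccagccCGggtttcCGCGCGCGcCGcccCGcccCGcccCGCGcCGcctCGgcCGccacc
Foxd1, chr13:98354042-98354241, plus strand: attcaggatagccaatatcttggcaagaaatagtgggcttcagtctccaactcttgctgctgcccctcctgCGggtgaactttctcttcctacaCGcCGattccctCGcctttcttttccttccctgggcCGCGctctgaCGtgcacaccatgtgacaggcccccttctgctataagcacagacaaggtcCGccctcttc
Foxr2, chrX:153118586-153118785, plus strand: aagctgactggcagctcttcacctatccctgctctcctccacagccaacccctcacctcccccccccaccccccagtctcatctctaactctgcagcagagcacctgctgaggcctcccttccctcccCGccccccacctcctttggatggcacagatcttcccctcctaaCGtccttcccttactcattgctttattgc
Foxh1, chr15:76669949-76670148, minus strand: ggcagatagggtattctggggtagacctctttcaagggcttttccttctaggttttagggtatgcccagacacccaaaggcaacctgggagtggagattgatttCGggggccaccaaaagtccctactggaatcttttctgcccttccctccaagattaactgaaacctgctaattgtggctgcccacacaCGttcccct
Foxo3 holds 28 CpGs in this stretch, Foxk1 26, Foxd1 8, Foxr2 2 and Foxh1 2. The stretches of Foxo3 and Foxh1 both lay wholly inside a peak. Foxh1 was chosen for its low CpG ratio, so that the contrast of its count with that of Foxo3 supports nothing further. The CpG ratio used for the choice was that of the 2 kb around the TSS, not of these 200 bases. The stretch of Foxk1, as dense in CpG as that of Foxo3, lay wholly outside, since its peak began 30 bp after the TSS.

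Among the FoxO genes, which respond to growth signals, all but Foxo6 had a marked promoter. Foxo3 (ENSMUSG00000048756.11), a regulator of quiescence and stress resistance (chr10:42181841-42276755, minus strand), had the widest promoter peak of the family, 9833 bp at chr10:42268895-42278727. It reached 1975 bp upstream and 7857 bp downstream of the TSS, over exons 1 and 2, and peaks of 1051 and 2187 bp followed in intron 2. Foxo4 (ENSMUSG00000042903.8) on chromosome X, from 101254528 to 101260873, lay whole inside a peak of 8322 bp (chrX:101253610-101261931). Foxo1 (ENSMUSG00000044167.6), the main FoxO factor of insulin response, on chromosome 3 from 52268336 to 52353221, had a peak of 3187 bp from 52267630 to 52270816 over exon 1 and the start of intron 1, which was 2.92% of the 84.9 kb gene. Foxo6 (ENSMUSG00000052135.8), a member known from brain, on chromosome 4 from 120267079 to 120287349, had none within 1 kb of its TSS. Its nearest peak of 1668 bp (chr4:120282529-120284196) lay in intron 1, 3.15 kb after the TSS, and a second of 7608 bp (chr4:120267961-120275568) spanned intron 1 and exon 2, so that 45.8% of the gene lay under peaks without its promoter.

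Foxm1 (ENSMUSG00000001517.14), the activator of mitotic genes, at chr6:128362967-128376146, had a peak of 4030 bp (chr6:128361806-128365835) over exons 1 and 2. The same peak held the TSS of the neighbouring gene Rhno1. The FoxK genes, whose products repress autophagy genes, were both marked. Foxk1 (ENSMUSG00000056493.9) on chromosome 5, from 142401497 to 142462011, had the narrowest promoter peak, 873 bp from 142401530 to 142402402, and 3 further peaks of 6748, 3588 and 3290 bp in the gene, centred 27.1, 39.2 and 50.5 kb after the TSS. Foxk2 (ENSMUSG00000039275.9) on chromosome 11, from 121259990 to 121309896, had a promoter peak of 3381 bp (chr11:121259231-121262611) and none further in. Peaks therefore covered 24.0% of Foxk1 and 5.25% of Foxk2, with most of the peak length of Foxk1 away from its promoter.

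The FoxJ and FoxN subfamilies hold members used in many tissues (Foxj2, Foxj3, Foxn2, Foxn3), of which all but Foxn3 had a promoter peak, and members of single tissues (Foxj1, Foxn1, Foxn4), of which none had. Foxj2 (ENSMUSG00000003154.15) and Foxj3 (ENSMUSG00000032998.16) had promoter peaks of 1182 bp (chr6:122819469-122820650) and 5709 bp (chr4:119537435-119543143), of which 62.4% and 100% lay in the annotated genes. Foxj1, the master factor of motile cilia, had none, and the nearest peak (chr11:116326572-116330538, 3967 bp) lay 4.86 kb downstream of its TSS, beyond the 3′ end of the gene. Foxn2 (ENSMUSG00000034998.18) had a promoter peak of 5673 bp (chr17:88437637-88443309) that reached 3074 bp upstream and 2598 bp downstream, and a further peak of 5097 bp in intron 2. Foxn4, a factor of retinal progenitors, had no peak within 105.8 kb of its TSS. Foxn1, the factor of thymic epithelium and hair, had a peak of 880 bp in intron 3 (chr11:78370071-78370950) and one of 468 bp in intron 8 (chr11:78360202-78360669), the narrowest of the family, which together covered 4.65% of the gene. Its TSS lay 13.5 kb from the nearest peak, which was upstream in Slc13a2.

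Foxn3 (ENSMUSG00000033713.12), a broadly used repressor (chr12:99190078-99563582, minus strand), counted as unmarked by the TSS of its isoform of longest genomic span, which lay 36.6 kb from the nearest peak. It held 7 peaks in 373.5 kb, the most of any member, from 1809 to 12566 bp wide, and 5 of its 6 annotated TSSs had a peak within 1 kb. Peaks covered 10.6% of the gene, and the one at its 5′ end was 1932 bp wide (chr12:99562207-99564138). The promoter of Foxn3 was therefore marked when all isoforms were used and when the isoform of longest spliced length was used.

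The FoxP proteins act as dimers and mostly repress. Foxp4 (ENSMUSG00000023991.16) on chromosome 17, from 47867133 to 47924645, had a promoter peak of 7799 bp (chr17:47917883-47925681) and 4 peaks of 811 to 2145 bp further in. Foxp1 (ENSMUSG00000030067.17) on chromosome 6, from 98925338 to 99522721, had a peak of 1906 bp (chr6:99521466-99523371) whose near edge was 469 bp upstream of the TSS used, and 7 of its 14 TSSs had a peak within 1 kb. Its 4 further peaks lay 136.8, 141.5, 280.1 and 492.7 kb into the gene (midpoints), of which the last, 1454 bp wide, was within 1 kb of 5 other TSSs of Foxp1. Foxp2 (ENSMUSG00000029563.16), known for its role in vocal learning, is nearly as long at 540.6 kb and had no peak in the gene, at any of its 8 TSSs or within 400.4 kb of the TSS used. Foxp3 (ENSMUSG00000039521.13), the factor of regulatory T cells on chromosome X, overlapped a peak of 8096 bp (chrX:7567124-7575219) at the 5′ end of the annotated gene that also held the TSS of Ppp1r3f. The TSS of Foxp3 used lay 4.46 kb away from it, and 1 of its 7 TSSs had a peak within 1 kb.

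Foxh1 (ENSMUSG00000033837.5), the partner of SMAD2 and SMAD3 in Nodal signalling, spans 1724 bp (chr15:76668225-76669948) and lay whole inside a peak of 6607 bp (chr15:76666129-76672735). The peak also held the TSS of Ppp1r16a, and 26.1% of its length was in Foxh1. Foxa3 (ENSMUSG00000040891.6) on chromosome 7, from 19013284 to 19023538, had a peak of 2389 bp (chr7:19023093-19025481) of which 18.7% was in the gene. The rest lay upstream, where the TSS of Sympk, a gene for an mRNA 3′ end processing factor, was inside the peak. Foxl2 (ENSMUSG00000050397.4) on chromosome 9, from 98955288 to 98958543, is an intronless gene needed in granulosa cells. No TSS of another protein-coding or lincRNA gene lay within 2 kb of its own. Its peak of 1470 bp, from 98955104 to 98956573, lay 87.5% in the gene and had a GC content of 70.0%, the highest of the 14. In all, 4 of the 14 promoter peaks held the TSS of another gene (Sympk, Ppp1r16a, Rhno1, Frg2f1), and in those the list cannot tell which promoter the peak belongs to. TSSs of noncoding transcripts other than lincRNA were not examined at any of the 14.

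**Figure D1:**
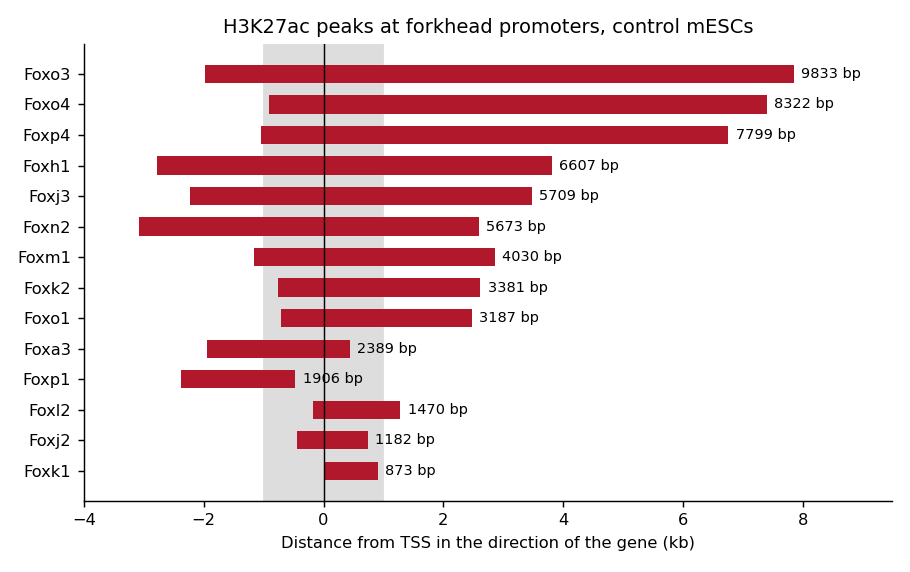
The peaks of the 14 marked forkhead promoters are drawn as bars along the distance from the TSS in kb, in the direction of the gene, with widths in bp beside them and the 1 kb window on each side shaded. The widest, at Foxo3, Foxo4 and Foxp4, extend into the gene, and the peaks of Foxk1 and Foxp1 do not include the TSS itself.

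The median width of the forkhead promoter peaks was 3705.5 bp (range 873 to 9833 bp), beside a median of 2048.5 bp for the 9194 peaks at all protein-coding promoters (quartiles 1494 and 4446.5 bp). The forkhead quartiles were 2026.75 and 6382.5 bp, so that both distributions overlapped widely. The peaks reached further downstream than upstream in 11 of 14 forkhead genes, or 78.6%, beside 67.6% of all marked protein-coding genes. The median reach was 2609.5 bp downstream and 1098.5 bp upstream, beside 1172 and 841 bp.

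Further peaks in the gene body were found in 11 forkhead genes, 28 peaks in all with a median width of 2038.5 bp, beside 2133 bp for such peaks of all protein-coding genes. Of the 14 members with a promoter peak, 7 also had a body peak, or 50%, beside 29.9% of all marked protein-coding genes. Of the 28 peaks, 15 touched no exon of any isoform, 6 lay within 1 kb of another TSS of the same gene, and 2 lay within 1 kb of the TSS of another gene. The latter were the peak at the 5′ end of Foxp3 and a peak of 13715 bp over the last exon of Foxj3 that held the TSS of Guca2a. Marked members had a median span of 49.9 kb, beside 23.1 kb for all marked protein-coding genes, and the part of span in the count of body peaks was not tested.

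**Figure D2:**
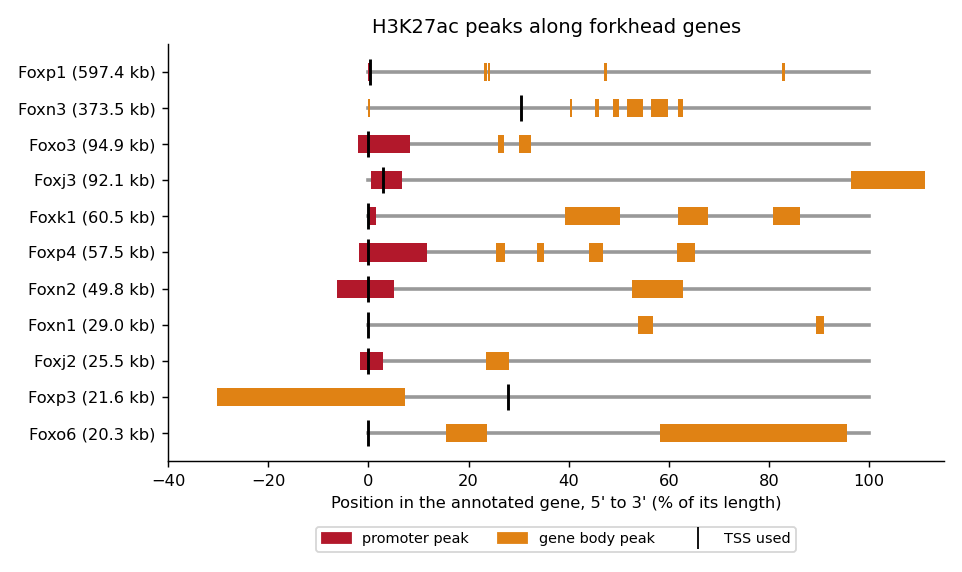
Peaks are placed along the 11 forkhead genes with body peaks, from the 5′ to the 3′ end as percent of the annotated length, with the length in kb beside each name, red for promoter peaks, orange for body peaks and a black tick for the TSS used. Foxn3 has body peaks on both sides of the TSS used, and Foxo6 has 2 body peaks without a promoter peak.

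The 25 members without a peak lay at a median distance of 74.0 kb from the nearest one, beside 76.2 kb for the 9574 protein-coding genes without a peak. A peak was within 50 kb for 10 of the 25, or 40.0%, beside 39.7%, and no peak was within 100 kb for another 10, beside 43.2%. After Foxj1, the nearest were Foxi3, an ectodermal factor of tooth and ear, with a peak of 4207 bp (chr6:70963442-70967648) 6.91 kb downstream, and Foxd1, a factor of kidney stroma, with a peak of 957 bp (chr13:98365766-98366722) 11.5 kb downstream. Foxr1 lay 16.04 kb from a peak of 8816 bp at Ccdc84 (chr9:44416285-44425100), and Foxs1 18.1 kb from one of 430 bp in Dusp15 (chr2:152951271-152951700). Of these 5, only Foxs1 had its nearest peak upstream.

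Other members stood far from any peak. Foxp2 lay 400.4 kb from the nearest (chr6:14499555-14500996, 1442 bp), in a stretch of 1209 kb that included the whole gene. Foxf1 (290.2 kb) and Foxc2 (258.4 kb) had the same nearest peak of 8945 bp (chr8:121374589-121383533), and Foxi2 was 269.9 kb from one of 2070 bp in Dock1 (chr7:135138387-135140456). Foxa1, a pioneer factor of endoderm, had a peak 74.3 kb downstream within the gene Mipol1 and none for 926.1 kb on the other side. Foxa2, the other pioneer factor of early endoderm, was 75.6 kb from the nearest peak.

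Several peak-free members lie side by side. Foxf1, Foxc2 and Foxl1, factors of mesenchyme and vessels, share 46.3 kb of chromosome 8 from 121084386 to 121130644 and stood in one stretch of 701.6 kb without a peak. Foxd2 and Foxe3 share 19.7 kb of chromosome 4, inside a stretch of 151.3 kb. Foxq1, Foxf2 and Foxc1 lie within 256.3 kb of chromosome 13 from 31556134 to 31812476, and here 3 peaks of 6247, 7204 and 6246 bp stood between Foxf2 and Foxc1, away from every protein-coding or lincRNA gene. The first began 43.7 kb downstream of the TSS of Foxf2 and the last ended 74.0 kb upstream of that of Foxc1. No promoter in the 3 clusters was marked.

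The other members without a peak were Foxb1 at 227.8 kb, Foxi1 at 222.3 kb, Foxq1 at 113.4 kb, Foxc1, Foxd4 at 59.6 kb, Foxd2 at 55.5 kb, Foxf2, Foxe3 at 38.3 kb, Foxe1 at 31.0 kb, Foxb2 at 29.8 kb, Foxr2 at 20.8 kb and Foxl1 at 246.6 kb. They include factors of thyroid (Foxe1), lens (Foxe3), inner ear and kidney (Foxi1) and midbrain and hypothalamus (Foxb1).

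**Figure D3:**
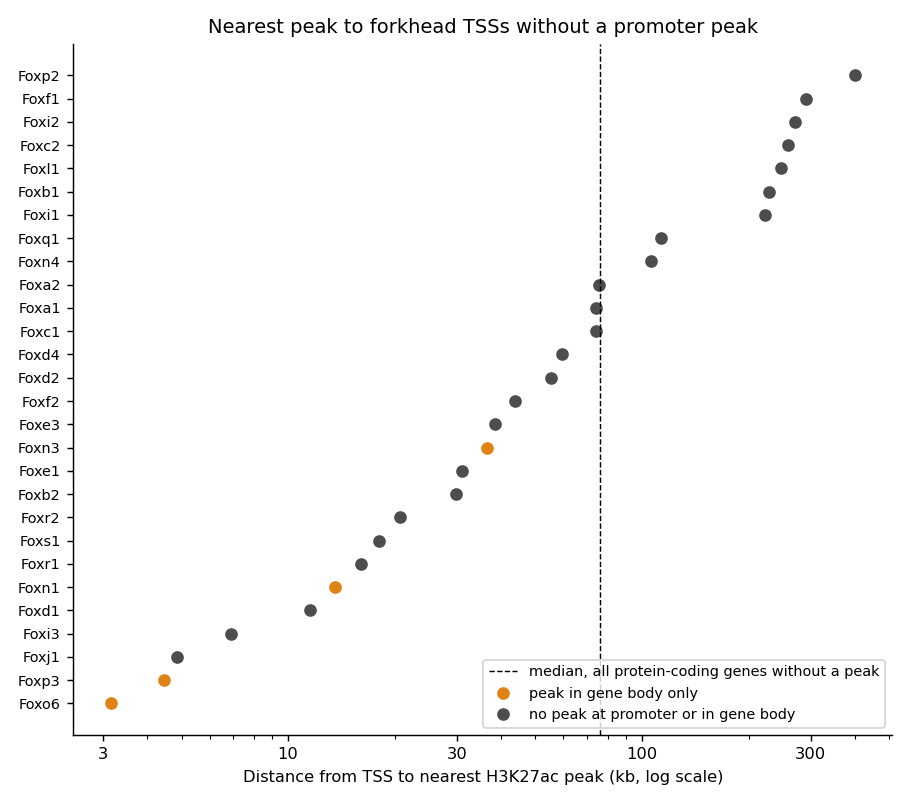
The distance from the TSS to the nearest peak is given in kb on a log axis for 28 forkhead genes without a promoter peak, orange for those with a peak in the gene body only and grey for those without any. The dashed line is the median of all peak-free protein-coding genes, 76.2 kb, and the grey points spread from 4.86 kb (Foxj1) to 400.4 kb (Foxp2) on both sides of it.

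Most forkhead promoters were rich in CpG, also those without a peak. The CpG ratio is the number of CpG dinucleotides divided by the number expected from the C and G content, here in the 2 kb around the TSS. Its median was 0.760 over the 43 members and 0.482 over all protein-coding genes, and the median GC content was 59.1% and 51.4%. Among all protein-coding genes the median ratio was 0.641 with a promoter peak and 0.227 without. Among forkhead genes it was 0.791 for the 14 with a promoter peak and 0.712 for the 29 without. In the 300 bp from 250 before to 50 after the TSS the forkhead medians were 0.957 and 0.632, beside 0.784 and 0.246, so that marked and unmarked members differed by 0.325 there and by 0.0792 over 2 kb. The median of unmarked forkhead promoters was above that of all marked promoters over 2 kb and below it over 300 bp.

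With a ratio of 0.6 or more taken as CpG-rich, 32 forkhead promoters qualified, or 74.4% (59.8 to 85.1%), beside 34.7% of all. This class was chosen after the members' values were seen. Of the 32, 13 were marked, or 40.6% (25.5 to 57.7%), whereas 83.6% (82.8 to 84.4%) of the 7578 CpG-rich protein-coding promoters were. Another 18 of the 32 had no peak anywhere in the gene, among them Foxd1 (0.888), Foxc2 (0.874), Foxc1 (0.850), Foxd2 (0.846), Foxf1 (0.840) and Foxa1 (0.824). Foxo1 had the highest ratio of the family, 0.985, with a marked promoter. Of 11 CpG-poor members, 1 was marked, Foxh1 with a ratio of 0.310, beside 30.4% of all CpG-poor promoters. The other 10 were Foxn1, Foxn3, Foxp3, Foxi1, Foxi2, Foxn4, Foxq1, Foxr1, Foxr2 and Foxs1.

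**Figure D4:**
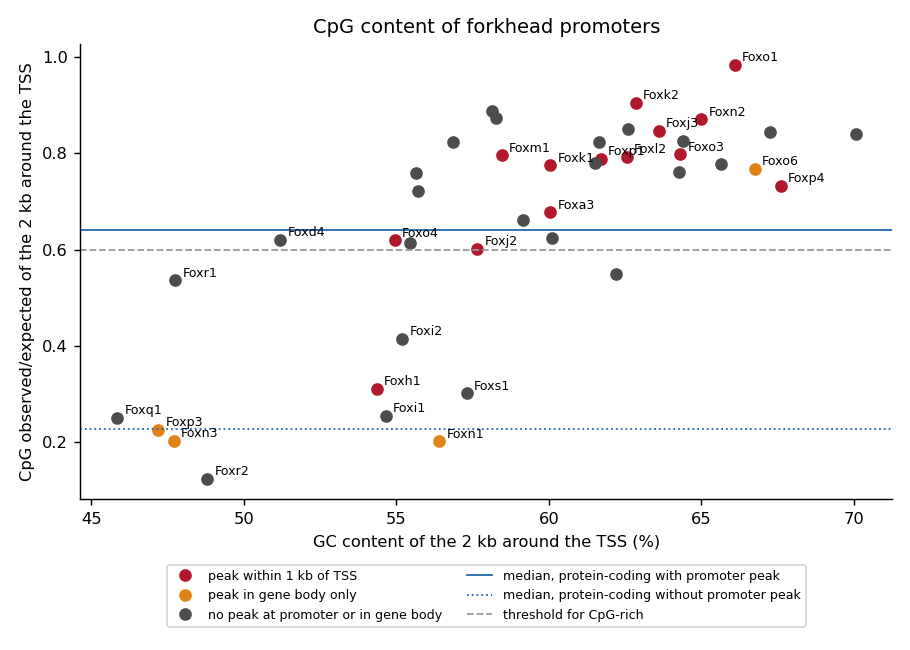
Each of 42 forkhead promoters is placed by GC content (%) and CpG observed/expected ratio of the 2 kb around the TSS and coloured by the peak class, with the medians of protein-coding promoters with a peak (0.641, solid) and without one (0.227, dotted) and the threshold of 0.6 (dashed). Red and grey points mix above the threshold, and of the red points only Foxh1 lies below it.

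Marks were also counted by gene structure, in classes chosen after the members' values were seen. Of 13 members with 1 exon, 1 was marked (Foxl2), or 7.69% (1.37 to 33.3%), beside 21.9% of all such protein-coding genes. Of 9 with 2 exons, 1 was marked (Foxa3), or 11.1% (1.99 to 43.5%), beside 24.2%. Of 21 with 3 or more exons, 12 were marked, or 57.1% (36.5 to 75.5%), beside 53.9%. Each of these intervals held the share of all genes with as many exons. The share with 1 exon was 30.2% in the family and 6.41% among all genes. Of 14 members spanning 20 kb or more, 9 were marked, or 64.3% (38.8 to 83.7%), beside 57.5%, and of 29 shorter members 5, or 17.2% (7.60 to 34.5%), beside 41.4%. Exon number, span and role overlap in the family, and their parts cannot be told apart.

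**Figure D5:**
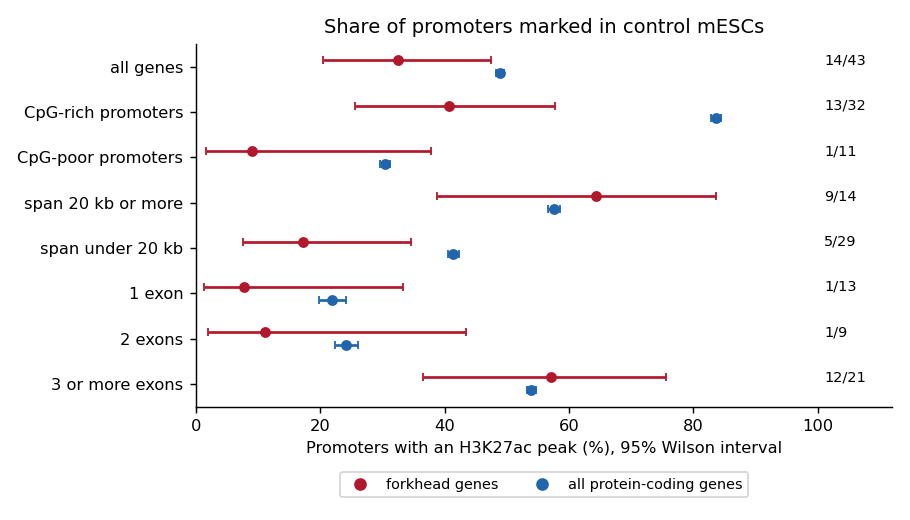
The share of promoters with a peak is given in percent with 95% Wilson intervals for forkhead genes (red, with counts at the right) and all protein-coding genes (blue), over all genes and by CpG ratio, gene span and number of exons. The intervals are apart for CpG-rich promoters (13 of 32 beside 83.6%), for short genes (5 of 29 beside 41.4%) and, narrowly, for all genes. They overlap for CpG-poor promoters, for long genes and for every class of exon number. The classes were chosen after the members' values were seen, so that the intervals describe these members and support nothing further.

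Short motifs were searched on both strands in the 300 bp window around each TSS, as a description of these letters and not of binding. The forkhead motif GTAAACA was present in 1 of 43 forkhead promoters, or 2.33%, beside 2.91% of all protein-coding promoters. It lay 131 bp before the TSS of Foxa1, shown with 10 bases on either side and the motif in capitals.
Foxa1, chr12:57546236-57546262, minus strand: atactgctttGTAAACAaagtgagggc
Over whole peaks the motif occurred 0.128 times per kb in the 14 forkhead promoter peaks (8 sites in 62.4 kb) and 0.131 times per kb in the 28 body peaks, beside 0.122 in all peaks at protein-coding promoters and 0.131 in all peaks of the list. The GC box GGGCGG, bound by SP1, was in 10 of 14 marked and 19 of 29 unmarked forkhead promoters, or 71.4% and 65.5%, whereas among all protein-coding promoters it was in 66.3% of marked and 24.6% of unmarked ones. CCAAT was in 41.9% of forkhead and 38.7% of all promoters, TATAAA in 6.98% and 12.4%, and the octamer ATGCAAAT in 0 of 43 beside 1.57%.

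Genes for regulators, partners and targets of FoxO, FoxH1, FoxM1 and FoxK were listed by textbook role, with earlier results of these data known. Partners of the other subfamilies were not listed. The promoter was marked in 22 of 25 cases, or 88.0% (70.0 to 95.8%), beside 48.8% of all protein-coding genes. All 3 SMAD genes of the FoxH1 complex were marked (Smad2, Smad3, Smad4), as were all 7 partners and targets of FoxM1 (Mybl2, Lin9, Lin54, Plk1, Ccnb1, Cdk1, Aurkb) and all 3 partners of FoxK (Bap1, Asxl1, Sin3a). Among 12 regulators of FoxO, 9 were marked. The exceptions were the kinase gene Akt1, 4.32 kb from the nearest peak, and Sgk1 and Sirt1, whose peaks lay at other isoforms. The widest peaks of the list were those at Usp7 (47209 bp), which encodes a deubiquitinase of FoxO, Mybl2 (45426 bp) and Ywhaz (40437 bp), which encodes a 14-3-3 protein. Each was wider than any peak at a forkhead promoter, whose limit was 9833 bp at Foxo3.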

How the data were processed

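H3K27ac was measured in 6 ChIP-seq libraries, and 1 list of control peaks was analysed. Per the labels and the study's methods, the authors trimmed reads with Cutadapt, aligned them with bwa meme to mm10 plus a human genome, removed duplicates (Picard 2.9.1) and poorly mapped reads (SAMtools 1.4), called peaks with LanceOtron, merged peaks within 2 kb, which widens peaks, and dropped low peaks and those away from ATAC-seq summits. The deposited values are peak positions in bp. A gene without a listed peak may have failed a threshold, and depth cannot be read from the list.

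From these positions and GENCODE M21 (GRCm38), promoters were set 1 kb to each side of the TSS of the protein-coding isoform with the longest genomic span, with 1 bp of overlap counted. The gene body is the annotated gene outside promoter peaks. Neighbouring genes and their TSSs were searched among protein-coding and lincRNA genes only. Shares have 95% Wilson intervals, and the limit for a count of 0 is 3 counts. No test across genes was run, since members are not replicates. Coordinates are 1-based. Sequences were read from the GRCm38.p6 genome. The rule for named genes took every member, with full values for those with a peak and for the 5 peak-free members nearest to and the 5 farthest from one. The members, role groups, partner list and classes by CpG ratio, span and exons were chosen with earlier results of these data known, the classes after the members' values were seen. Some values that this rule called for are not reported here; counts and medians cover all 43 members. With simulated peaks placed at 3000 promoters, the overlap counts of all 21853 genes matched a direct count, which checks the code only. Python 3.11.15, numpy 2.4.6, scipy 1.17.1 and matplotlib 3.10.9 were used.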

Additional observations from a re-analysis of the deposited data

How the results depend on the processing

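The share of marked forkhead promoters, 32.6%, stayed inside its interval under all 9 alternatives, from 27.03% (no other TSS within 2 kb) to 37.2% (all isoforms, 24.4 to 52.1%). The upper limit rose above 48.8%, the share of all genes with 1 isoform each, when all isoforms were used and with members within 500 kb counted once (36.8%, 23.4 to 52.7%). The share without any peak, 58.1%, lay between 52.6 and 60.5%. Of 43 members, 39 kept their status under the 7 alternatives for window, isoform, overlap and peak width. Foxk1 was lost with the TSS base itself and with peaks at least 1 kb wide, Foxp1 with the TSS base and the isoform of longest spliced length, and Foxn3 (both isoform choices) and Foxp3 (all isoforms) were gained. The share of marked partner genes moved from 88.0 to 96.0% with all isoforms, since Sgk1 and Sirt1 have peaks at other TSSs. The median peak width ranged from 3183 to 4851.5 bp. CpG-rich members were marked in 12 of 28 cases (42.9%) when the ratio was taken from the 300 bp window, an alternative chosen after seeing the data, beside 79.7% of all such promoters. The CpG difference between marked and unmarked members, 0.0792, was 0.325 in that window and 0.0727 by spliced length and the cause was not tested. No paired analysis was possible because both control libraries are pooled in the list, which also kept single replicates from being left out.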
